A study of Homo sapiens with 11 samples.

Results

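The BCL2 family genes and NOL3 are 10 of the 38557 genes in the count table of MOLM-13 cells, and all 10 were found by their symbols and passed the filter on low counts. MOLM-13 is a human acute myeloid leukemia line that carries a KMT2A-MLLT3 fusion and a FLT3 internal tandem duplication. Every library came from polyA RNA of cells kept for 72 hours in diluent (DMSO, 4 libraries), in MI-503 at 1 µM, which blocks the binding of Menin to KMT2A (4 libraries), or in both MI-503 at 1 µM and PR-957 (ONX-0914) at 100 nM, the latter an inhibitor of the immunoproteasome subunit PSMB8 (3 libraries, replicates 1, 2 and 4, called the combination here). No library of PR-957 alone was analysed, so the effect of PR-957 is seen only on top of MI-503. All libraries stem from 1 cell line, and the labels do not say that replicates were separate cultures, so p-values may measure only technical spread.

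The 9 BCL2 family genes were taken as a family of known regulators, though earlier results of these data were known by then. NOL3 was chosen by its rise in the combination over MI-503, so its values are given as a description, with no test in any comparison. Proteins of the BCL2 family decide whether the outer mitochondrial membrane is breached in intrinsic apoptosis. The guardians (BCL2, MCL1, BCL-XL from BCL2L1, and BFL-1 from BCL2A1) hold back the pore formers BAX and BAK, and the BH3-only proteins (BIM from BCL2L11, BID, NOXA from PMAIP1, BAD and BMF) bind the guardians or activate the pore formers. NOL3, also called ARC, is a caspase recruitment domain protein that binds initiator caspases and represses death receptor and mitochondrial apoptosis. Acute myeloid leukemia cells commonly lean on BCL2 and MCL1, which is why BCL2 inhibitors are used in this disease.

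Depth ranged from 18891243 to 41153974 counted fragments per library. The 8 myeloid leukemia markers were detected in every group, among them PTPRC at 137 ± 6.59, CD33 at 35.6 ± 1.32 and FLT3 at 324 ± 11.3 CPM in DMSO (mean ± SD, n = 4; CPM are counts scaled to library depth), while MS4A1 had no fragment in any library and CD3E, HBB and EPCAM had 1 to 3 fragments in all libraries together. The monocyte marker LYZ went from 95.2 ± 7.76 CPM in DMSO to 376 ± 4.81 in MI-503 and 1641 ± 968 in the combination, whose libraries ranged from 599 to 2513. Combination replicate 1 stood apart from its group, since its counts gave a chi-square over degrees of freedom of 17.7 against replicate 2 and 30.2 against replicate 4, where all other pairs within a group lay between 1.67 and 5.53. For the 9 family members, each call that changed without this library is given both ways. In bulk RNA, fewer cells of a kind and less RNA per cell cannot be told apart.

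The order of the members by length-corrected level (FPKM, scaled CPM per kilobase of exon) was led by MCL1 in every group, where the 4 DMSO libraries averaged 72.1 ± 2.27 (SD), the 4 MI-503 libraries 57.0 ± 0.873 and the 3 combination libraries 63.8 ± 0.943. BID came next in each group, at 24.7 ± 0.704, 18.6 ± 1.43 and 17.9 ± 1.13 FPKM. BCL2 had rank 3 in DMSO, at 13.3 ± 0.291 FPKM, and rank 3 in MI-503, at 12.5 ± 0.368 FPKM, but rank 6 in the combination, at 7.61 ± 0.523 FPKM. NOL3 had rank 9 in DMSO, at 1.69 ± 0.181 FPKM, rank 9 in MI-503, at 1.48 ± 0.223 FPKM, and rank 3 in the combination, at 10.4 ± 0.676 FPKM. BCL2A1 was the lowest of the 10 in every group, at 0.766 ± 0.134, 1.06 ± 0.270 and 1.98 ± 1.27 FPKM. In DMSO, the libraries of neighbours in this order did not overlap except for BCL2L1 (3.75 ± 0.305 FPKM) and BMF (3.39 ± 0.326 FPKM). In MI-503, PMAIP1, BMF and BCL2L11 ran together at 8.45 ± 0.920, 7.58 ± 0.245 and 7.37 ± 0.160 FPKM, and NOL3 overlapped with BCL2A1. In the combination, NOL3, BMF (8.88 ± 1.46 FPKM), PMAIP1 (7.75 ± 1.17 FPKM) and BCL2 overlapped from each to the next, as did BCL2L11 (6.46 ± 0.938 FPKM) and BAD (6.09 ± 0.501 FPKM). Ranking by TPM gave the same order in each group.

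**Figure D1:**
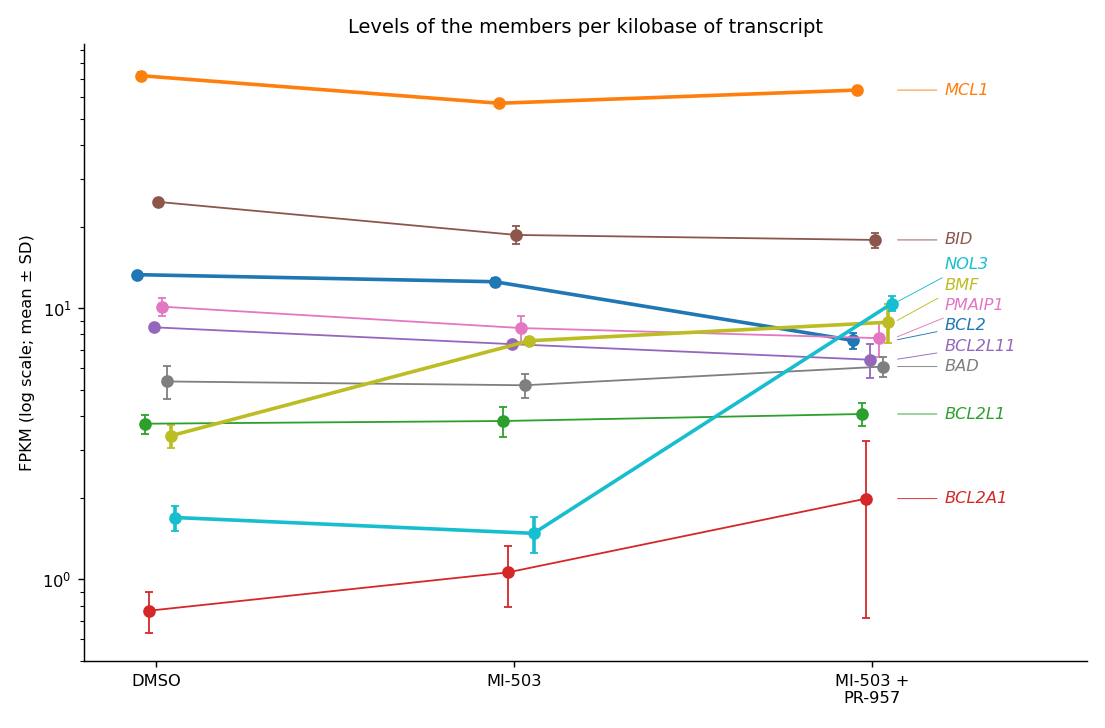
Length-corrected level of the 10 members (FPKM, log scale; points are group means and bars the SD) in DMSO (n = 4), MI-503 (n = 4) and MI-503 + PR-957 (n = 3). MCL1 stays highest, BMF climbs from 3.39 in DMSO to 7.58 in MI-503, and BCL2 drops to 7.61 in the combination, where NOL3 climbs to 10.4.

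Within the guardians among the members, the sum of the 4 genes was 89.9 ± 2.48 FPKM in DMSO, 74.4 ± 0.931 in MI-503 and 77.4 ± 0.135 in the combination. MCL1 made up 80.2% ± 0.419 of that sum in DMSO, 76.6% ± 0.373 in MI-503 and 82.4% ± 1.36 in the combination. The share of BCL2 was 14.8% ± 0.304, 16.8% ± 0.638 and 9.82% ± 0.689 in the same order. Transcripts of the 5 BH3-only members summed to 52.1 ± 0.731, 47.2 ± 1.94 and 47.0 ± 1.51 FPKM. BID made up 47.4% ± 1.03 of the BH3-only sum in DMSO and 39.4% ± 1.45 in MI-503, whereas BMF made up 6.51% ± 0.702 and 16.1% ± 1.13. Outside the members, the BH3-only gene BIK stood at 44.2 ± 3.16, 57.7 ± 5.47 and 33.3 ± 4.25 FPKM in DMSO, MI-503 and the combination. BBC3, also BH3-only, stood at 8.19 ± 0.243, 7.83 ± 0.291 and 9.76 ± 1.22 FPKM. The guardian gene BCL2L2 stood at 5.92 ± 0.258, 7.08 ± 0.336 and 7.67 ± 0.382 FPKM. The sums and shares thus hold for the members and not for all genes of either kind. These sums count transcripts and say nothing of protein.

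The first comparison, MI-503 against DMSO, asks what Menin inhibition did to these genes. Of the 9 family members, 1 rose (BMF) and 4 fell (MCL1, BCL2L11, BID and PMAIP1) at an edgeR adjusted p under 0.05. Among all 14683 genes tested, 22.0% were called higher and 29.3% lower, so 1 and 4 of 9 are read against those shares. Of all calls, 42.9% were higher with TMM scaling and 54.2% with upper-quartile scaling. Groups did not overlap for 4 of the 9, beside 50.3% of all genes. The median log2 fold change of the 9 was -0.09, and that of all genes -0.03. In the combination against DMSO, 2 of the 9 rose (BMF and BCL2A1) and 5 fell (BCL2, MCL1, BCL2L11, BID and PMAIP1), where 31.7% of all genes were called higher and 32.8% lower. Groups did not overlap for 6 of the 9, beside 60.5% of all genes, and the medians were -0.18 for the 9 and 0.01 for all genes. In the combination against MI-503, which asks what PR-957 added, 2 of the 9 rose (MCL1 and BMF) and 2 fell (BCL2 and BCL2L11), where 23.6% of all genes were called higher and 23.8% lower. Groups did not overlap for 4 of the 9, beside 47.6% of all genes, and the medians were 0.08 and 0.00. The comparisons share libraries (each group enters a pair of them), so their values are set side by side and not counted as separate evidence.

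**Figure D2:**
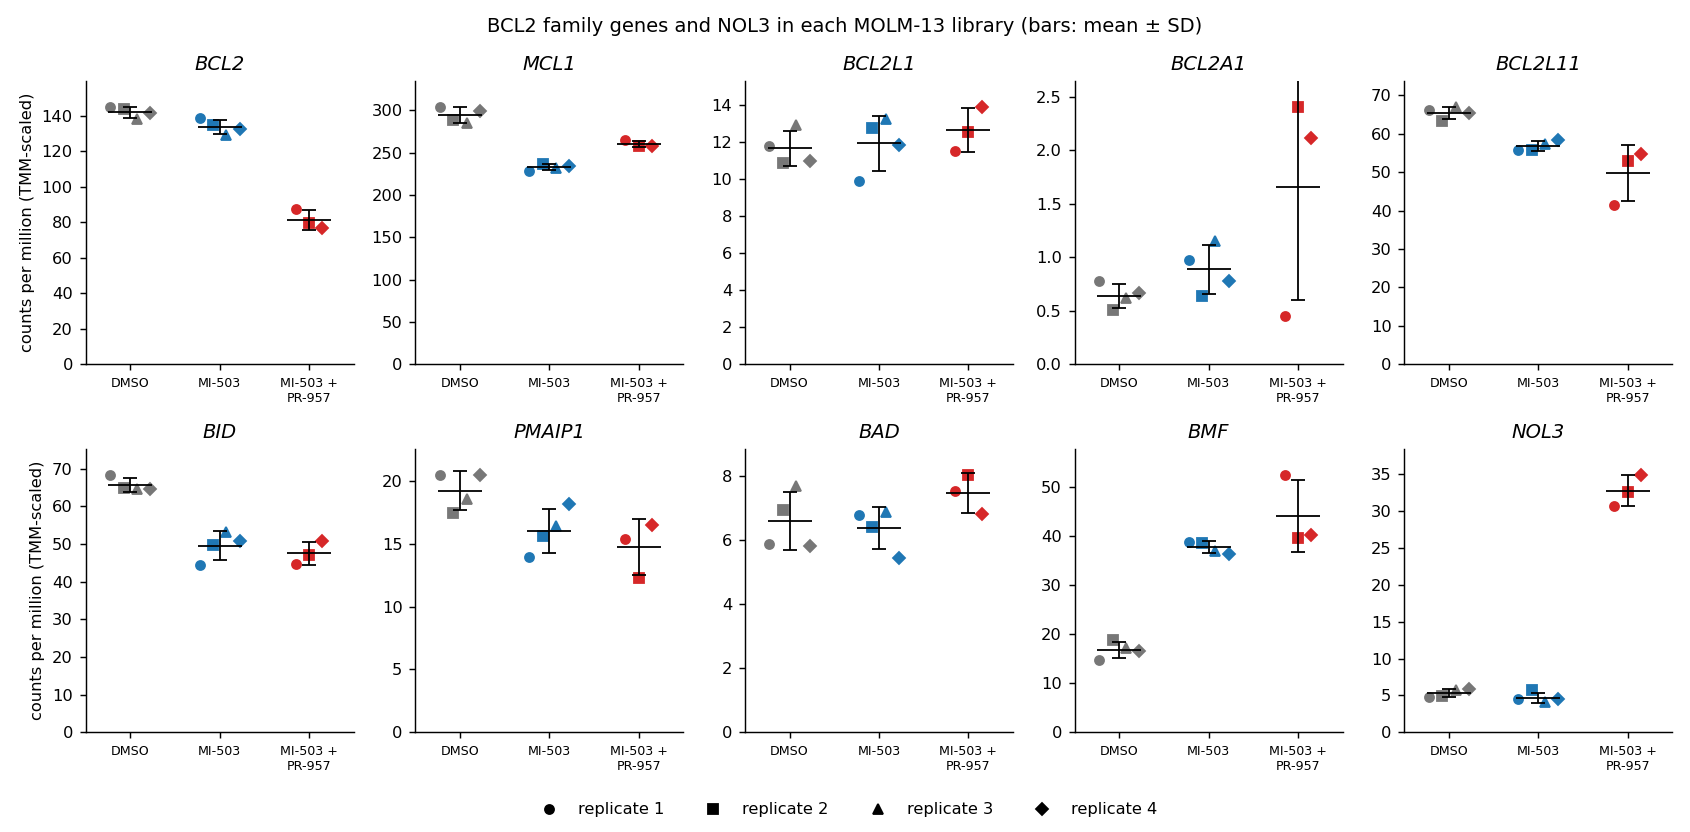
CPM (TMM-scaled, linear axis from 0) of each member in every library; symbols mark the replicate number and black bars the mean ± SD of 4 DMSO, 4 MI-503 and 3 MI-503 + PR-957 libraries. The 3 combination libraries lie below all others for BCL2 (76.6 to 87.5) and above all others for NOL3 (30.7 to 35.0).

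BCL2 (chr18:63123346-63320280, minus strand; all gene positions are hg38), the guardian that BCL2 inhibitors target, fell in the combination. It stood at 145, 144, 138 and 142 CPM in DMSO replicates 1 to 4. In MI-503 it stood at 139, 135, 129 and 132 CPM. In combination replicates 1, 2 and 4 it stood at 87.5, 79.9 and 76.6 CPM. The DMSO and MI-503 libraries overlapped, and every combination library lay below both. BCL2 was 0.573 times the DMSO level in the combination (log2 fold change -0.80, SE 0.05, edgeR adjusted p = 3.11e-10) and 0.608 times the MI-503 level (log2 fold change -0.72, SE 0.05, edgeR adjusted p = 5.40e-09). With MI-503 alone the value was -0.09 on the log2 scale (95% interval -0.18 to 0.01, edgeR adjusted p = 0.108). Without combination replicate 1, the highest of the 3, the log2 fold changes were -0.84 against DMSO and -0.80 against MI-503.

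MCL1 (chr1:150574551-150579738, minus strand), a short-lived guardian, moved in opposite directions in its steps. It stood at 304, 289, 285 and 300 CPM in DMSO, at 228, 237, 232 and 234 CPM in MI-503, and at 265, 258 and 259 CPM in the combination. No pair of groups overlapped, with the combination between the other two. MCL1 fell with MI-503 (log2 fold change -0.34, SE 0.04, edgeR adjusted p = 1.01e-06), and it rose when PR-957 was added (log2 fold change 0.16, SE 0.04, edgeR adjusted p = 0.00288). It stayed lower in the combination than in DMSO (log2 fold change -0.18, SE 0.04, edgeR adjusted p = 8.99e-04). Transcript of BCL2 per transcript of MCL1, by FPKM, was 0.185 ± 0.0042 in DMSO, 0.220 ± 0.0086 in MI-503 and 0.119 ± 0.0065 in the combination.

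BCL2L1 (chr20:31664452-31723963, minus strand), which encodes BCL-XL, passed no test. It lay between 10.9 and 12.9 CPM in DMSO, 9.91 and 13.3 CPM in MI-503, and 11.5 and 13.9 CPM in the combination, and the groups overlapped. Its log2 fold changes were 0.04 (95% interval -0.16 to 0.24) with MI-503, 0.11 (-0.10 to 0.33) in the combination against DMSO and 0.08 (-0.14 to 0.29) against MI-503. Of its exon bases, 35.0% are shared with the noncoding gene ABALON, and strand was not used in the counting.

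BCL2A1 (chr15:79960892-79971196, minus strand), a guardian found in myeloid cells, was near the limit of detection, with 11 to 57 fragments per library. It stood at 0.776, 0.505, 0.617 and 0.664 CPM in DMSO and at 0.972, 0.639, 1.16 and 0.778 CPM in MI-503. In the combination it stood at 0.449, 2.41 and 2.12 CPM. Replicates 2 and 4 of the combination were above all other libraries, and replicate 1 was below all of them. BCL2A1 rose in the combination against DMSO (log2 fold change 1.23, SE 0.44, edgeR adjusted p = 0.0208), and the groups overlapped. Against MI-503 the log2 fold change was 0.81 (edgeR adjusted p = 0.117), and without combination replicate 1 it was 1.35 (edgeR adjusted p = 5.57e-05). Without that library the value against DMSO was 1.80 (edgeR adjusted p = 1.37e-06). The call against DMSO was lost without combination replicate 2 (edgeR adjusted p = 0.120), without combination replicate 4 (0.110) and without DMSO replicate 2 (0.0504), and with limma-voom the value was 0.73 (limma-voom adjusted p = 0.231).

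BMF (chr15:40087890-40108879, minus strand) encodes a BH3-only protein that is tied to the cytoskeleton and released under stress, and it had the largest rise of the 9 family members with MI-503. It stood at 14.8, 18.7, 17.2 and 16.6 CPM in DMSO and at 38.7, 38.6, 36.9 and 36.3 CPM in MI-503. In the combination it stood at 52.4, 39.5 and 40.2 CPM. All treated libraries lay above all DMSO libraries. BMF was 2.25 times the DMSO level in MI-503 (log2 fold change 1.17, SE 0.09, edgeR adjusted p = 1.71e-08) and 2.65 times in the combination (log2 fold change 1.41, SE 0.09, edgeR adjusted p = 9.09e-10). Its rise from MI-503 to the combination was small (log2 fold change 0.24, SE 0.09, edgeR adjusted p = 0.0346). That step was 0.06 (edgeR adjusted p = 0.506) without combination replicate 1, which was the highest library. With the replicate number as a block it was 0.23 (edgeR adjusted p = 0.0515), and the call was also lost without MI-503 replicate 2, 3 or 4 (0.0853, 0.0750 and 0.0823) and with DESeq2 (0.0524).

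BCL2L11 (chr2:111120914-111168445, plus strand), which encodes the BH3-only activator BIM, fell in each comparison. It stood at 66.1, 63.4, 67.0 and 65.5 CPM in DMSO, at 55.8, 55.7, 57.2 and 58.3 CPM in MI-503, and at 41.5, 52.9 and 54.8 CPM in the combination. The 3 groups did not overlap, and combination replicate 1 was the lowest library. The log2 fold change was -0.21 with MI-503 (SE 0.07, edgeR adjusted p = 0.0148) and -0.41 in the combination against DMSO (SE 0.07, edgeR adjusted p = 9.81e-05). The fall from MI-503 to the combination was 0.871 times (log2 fold change -0.20, SE 0.07, edgeR adjusted p = 0.0312), and without combination replicate 1 it was -0.10 on the log2 scale (edgeR adjusted p = 0.0890). Without that library the value against DMSO was -0.26 (edgeR adjusted p = 4.56e-05). The call of MI-503 against DMSO was lost with upper-quartile scaling (edgeR adjusted p = 0.0678) and without MI-503 replicate 2 (0.122), and that of the combination against MI-503 without MI-503 replicate 3 (0.0622) or 4 (0.0726).

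BID (chr22:17734140-17774665, minus strand), whose BH3-only protein is cleaved by caspase 8, fell with MI-503 and showed no further call when PR-957 was added. It stood at 68.4, 65.0, 64.5 and 64.6 CPM in DMSO, at 44.3, 49.8, 53.3 and 50.8 CPM in MI-503, and at 44.8, 47.1 and 50.7 CPM in the combination. Every treated library lay below every DMSO library, and the treated groups overlapped. BID fell by 0.40 on the log2 scale with MI-503 (SE 0.06, edgeR adjusted p = 1.26e-05) and by 0.47 in the combination (SE 0.06, edgeR adjusted p = 2.98e-06). Between the treated groups the value was -0.06 (95% interval -0.19 to 0.06, edgeR adjusted p = 0.410).

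PMAIP1 (chr18:59899996-59904305, plus strand) encodes NOXA, a BH3-only protein that binds MCL1. It stood at 20.5, 17.4, 18.5 and 20.5 CPM in DMSO, at 14.0, 15.6, 16.4 and 18.2 CPM in MI-503, and at 15.4, 12.2 and 16.5 CPM in the combination. MI-503 replicate 4 reached into the DMSO range, and the combination libraries lay below all DMSO libraries. PMAIP1 fell with MI-503 (log2 fold change -0.26, SE 0.09, edgeR adjusted p = 0.0281) and in the combination against DMSO (log2 fold change -0.38, SE 0.10, edgeR adjusted p = 0.00399), with -0.11 between the treated groups (95% interval -0.33 to 0.10). The call of MI-503 against DMSO was lost when DMSO replicate 1 or 4 or MI-503 replicate 1 or 2 was left out (edgeR adjusted p = 0.0909, 0.0821, 0.0988 and 0.141), and with upper-quartile scaling (0.0852).

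BAD (chr11:64269828-64284704, minus strand), which encodes a BH3-only protein controlled by phosphorylation, lay between 5.44 and 8.03 CPM over all libraries, and its groups overlapped. Its log2 fold changes were -0.04 with MI-503, 0.18 in the combination against DMSO and 0.23 against MI-503 (95% interval -0.02 to 0.47, edgeR adjusted p = 0.124). With the replicate number as a block the last of these was 0.29 (edgeR adjusted p = 0.0312). Of its exon bases, 10.5% are shared with GPR137, and reads there cannot be assigned by strand.

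**Figure D3:**
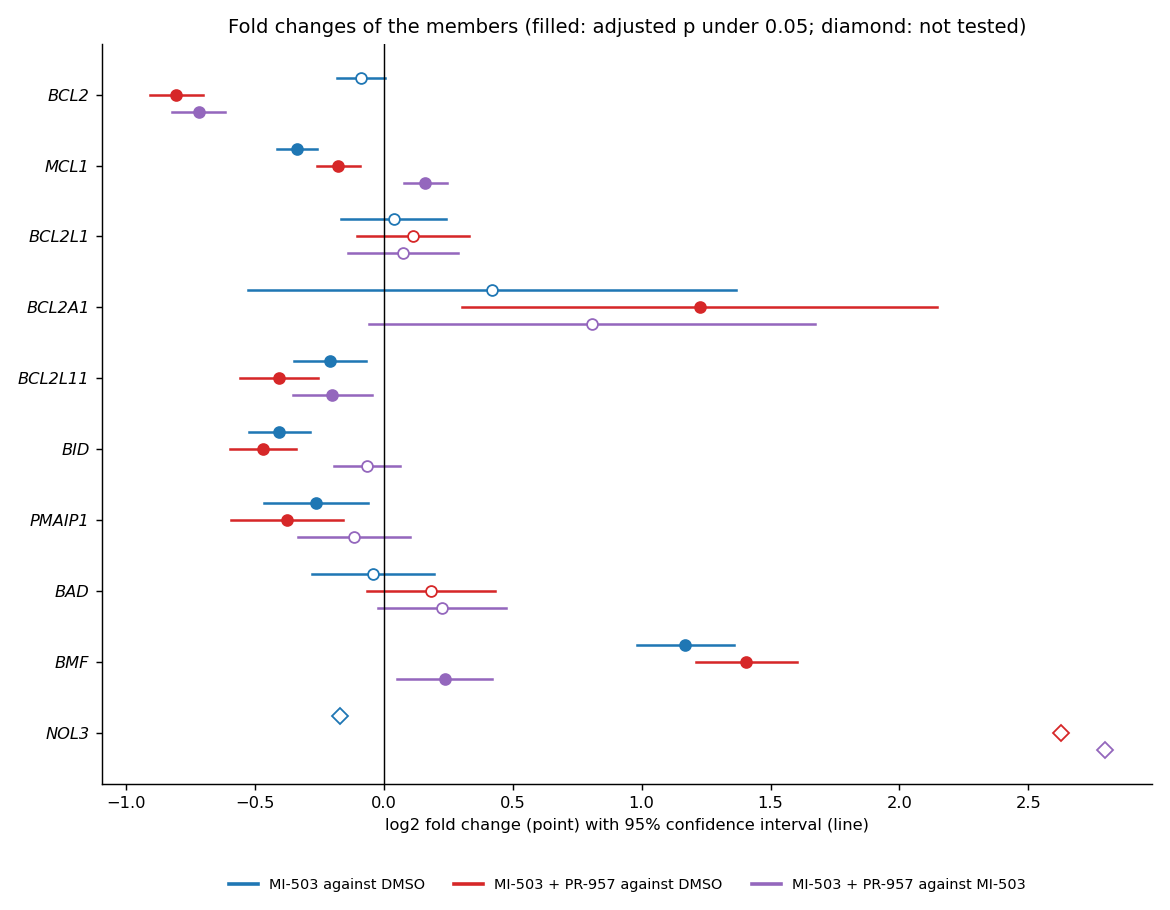
Log2 fold change of each member in the 3 comparisons, with the 95% confidence interval of the edgeR fit as a line; filled circles passed an adjusted p of 0.05 and open circles did not. NOL3 is drawn as open diamonds with no interval since it was not tested. BMF lies at 1.17 and 1.41 against DMSO and BCL2 at -0.80 and -0.72 for the combination.

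NOL3 was low in DMSO and MI-503 and high in the combination. It stood at 4.76, 4.92, 5.74 and 5.88 CPM in DMSO and at 4.44, 5.67, 4.05 and 4.46 CPM in MI-503. In the combination it stood at 30.7, 32.7 and 35.0 CPM, from 651 to 1301 fragments against 96 to 195 in the other libraries. The DMSO and MI-503 libraries overlapped, and the combination libraries did not reach near them. As a description, the combination was 6.95 times the MI-503 level (log2 fold change 2.80, SE 0.10) and 6.18 times the DMSO level (log2 fold change 2.63, SE 0.10), and the difference of MI-503 from DMSO was -0.17 (SE 0.12). Without combination replicate 1 the value against MI-503 was 2.81. By size of the log2 fold change from MI-503 to the combination, NOL3 ranked 44th of 14683 genes, and 5th of the 10041 genes whose mean reached 5 CPM. Among the latter, KLF2 stood just above it at 2.96 and GABARAPL1 just below it at 2.57. In the combination against DMSO it ranked 24th of the same 10041 genes.

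NOL3 lies at chr16:67170497-67175737 on the plus strand of hg38. Of its exon bases, 139 (4.41%) are shared with KIAA0895L on the minus strand, where reads cannot be assigned by strand. HSF4, a heat shock factor gene, ends 556 bases before NOL3 on the same strand, and EXOC3L1 lies 8642 bases beyond it. HSF4 stood at 23.2 ± 1.27 CPM in DMSO, 20.4 ± 2.19 in MI-503 and 35.8 ± 4.82 in the combination, and it rose in the combination against MI-503 (log2 fold change 0.80, SE 0.09, edgeR adjusted p = 2.09e-06). KIAA0895L stood at 20.1, 25.1 and 37.7 CPM, and it rose with MI-503 (log2 fold change 0.33, edgeR adjusted p = 0.00114) and again in the combination (0.59, edgeR adjusted p = 6.46e-06). EXOC3L1 was below 1 CPM in all libraries, with a log2 fold change of 0.48 (edgeR adjusted p = 0.226) between the treated groups. NOL3 counts per HSF4 count were 0.229 ± 0.0194, 0.228 ± 0.0206 and 0.923 ± 0.0979 in DMSO, MI-503 and the combination, and per KIAA0895L count 0.266 ± 0.0314, 0.185 ± 0.0155 and 0.872 ± 0.0918. Whether reads that run on from HSF4 add to NOL3 was not tested.

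**Figure D4:**
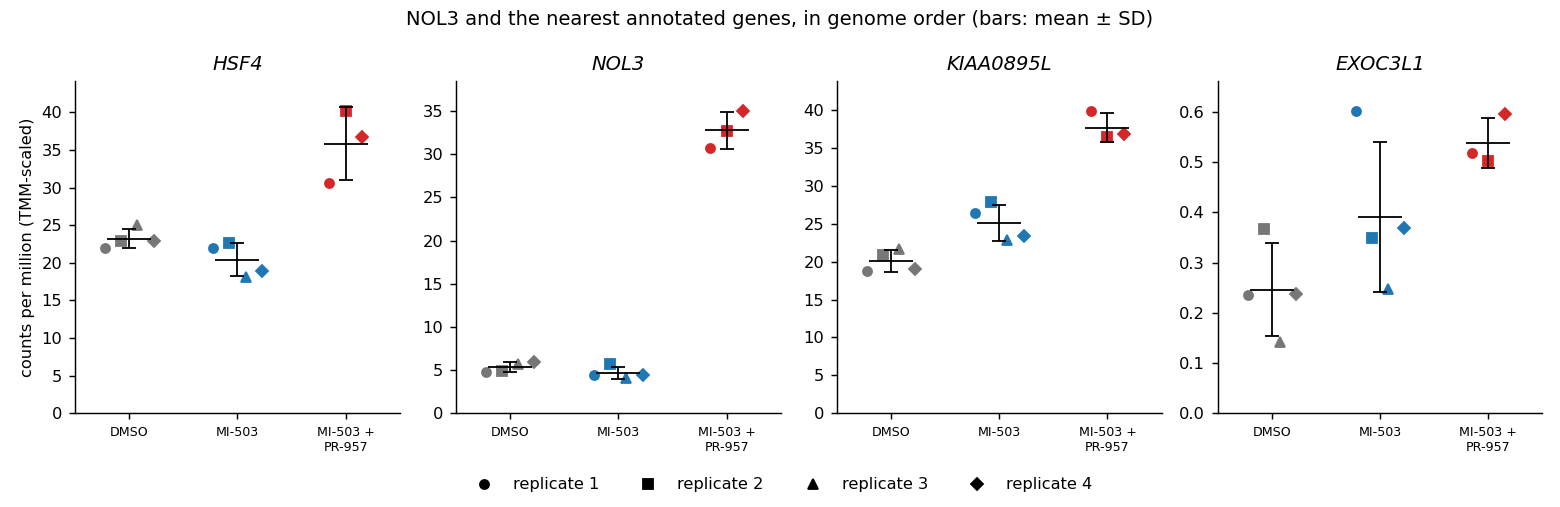
CPM (TMM-scaled, linear axes from 0, a scale for each gene) of NOL3 and its nearest annotated genes in genome order, in every library, with the mean ± SD. HSF4 and KIAA0895L are higher in the combination (35.8 and 37.7) than in MI-503 (20.4 and 25.1), and NOL3 goes from 4.65 to 32.8.

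Bases before the start are shown for the letters they hold in 3 genes, chosen after their values were seen. These are NOL3, BMF, which rose in each comparison, and BCL2L11, which fell in each, the last calls of both against MI-503 being lost without combination replicate 1. RefSeq (GRCh38.p14) gave the bases before annotated starts for 9 of the 10 members, with none for MCL1. The NOL3 stretch ends where the exons of the count annotation begin (chr16:67170288-67170496, plus strand), and the BMF (chr15:40108880-40109129, minus strand) and BCL2L11 (chr2:111120664-111120913, plus strand) stretches are the 250 bases before the start. Capitals mark matches to 7 short motifs searched on both strands.
NOL3: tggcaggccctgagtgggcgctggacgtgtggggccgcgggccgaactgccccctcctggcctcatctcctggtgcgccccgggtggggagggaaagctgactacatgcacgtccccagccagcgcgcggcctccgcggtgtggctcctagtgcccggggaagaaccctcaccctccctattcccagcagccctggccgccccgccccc
BMF: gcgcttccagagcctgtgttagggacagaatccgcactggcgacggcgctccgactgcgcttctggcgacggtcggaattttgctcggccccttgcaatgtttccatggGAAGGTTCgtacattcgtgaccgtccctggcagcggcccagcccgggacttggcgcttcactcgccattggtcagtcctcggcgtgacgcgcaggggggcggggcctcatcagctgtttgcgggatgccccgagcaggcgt
BCL2L11: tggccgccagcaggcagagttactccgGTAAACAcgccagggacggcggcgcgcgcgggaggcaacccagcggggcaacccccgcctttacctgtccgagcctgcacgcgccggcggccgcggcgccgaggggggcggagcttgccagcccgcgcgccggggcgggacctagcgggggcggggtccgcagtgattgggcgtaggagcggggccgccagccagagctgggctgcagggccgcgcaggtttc
The motifs were TGACNNNGC (antioxidant response element), GAANNTTC (heat shock element), TGACGTCA (cAMP response element), TGATGNAA (CHOP-ATF4 element), GTAAACA (forkhead element), CACGTG (E-box) and TGANTCA (AP-1 element). In the 250-base windows of 35116 promoters they were found in 10.9%, 5.78%, 1.65%, 3.14%, 2.98%, 6.34% and 6.57%. The BMF window shown, 1 of 2, held the heat shock letters and the BCL2L11 window the forkhead letters, once each, and no match overlapped another. Of the 5 BID windows 2 held the E-box, both BAD windows the antioxidant letters and the BCL2A1 window the CHOP-ATF4 letters. None of the 7 was in either NOL3 window or in those of BCL2, BCL2L1 and PMAIP1. A match is a description of letters, not a site in use.

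The 5 genes whose log2 CPM followed NOL3 most closely over the 11 libraries, of 12467 compared, were EXOC8 (Pearson r 0.997), ACADVL (0.993), PTPN23 (0.992), BLOC1S2 (0.991) and CYB5R1 (0.990). All points share the same libraries, and for each of these genes the combination libraries lie apart from the other 8, so r describes that split. ACADVL, a mitochondrial fatty acid dehydrogenase gene, lay between 255 and 278 CPM in the DMSO and MI-503 libraries and stood at 680, 776 and 779 CPM in the combination. CYB5R1 lay between 16.4 and 18.7 CPM and stood at 70.4, 68.0 and 71.4 CPM.

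Of the 14 other BCL2 family genes, 12 could be tested (BCL2L10 had 9 fragments in all and BCL2L14 none). With MI-503, 3 rose and 2 fell (22.0% and 29.3% of all genes), in the combination against DMSO 6 rose and 3 fell (31.7% and 32.8%), and in the combination against MI-503 3 rose and 2 fell (23.6% and 23.8%). The median log2 fold changes of the 12 were 0.07, 0.17 and 0.12, beside -0.03, 0.01 and 0.00 for all genes. The pore former genes passed no test in the main fit (TMM scaling, all libraries). BAX stood at 89.5 ± 2.49, 86.4 ± 4.96 and 94.0 ± 9.50 CPM and BAK1 at 47.9 ± 1.89, 47.2 ± 2.09 and 50.9 ± 2.01 CPM in DMSO, MI-503 and the combination. Without combination replicate 1, BAX was higher in the combination than in DMSO (log2 fold change 0.17, edgeR adjusted p = 0.00465) and than in MI-503 (0.18, edgeR adjusted p = 0.00510). Against DMSO, BAK1 in the combination passed the test with upper-quartile scaling (0.16, edgeR adjusted p = 0.0101) and with a filter at a mean of 5 CPM (0.16, edgeR adjusted p = 0.00659). BOK, a relative of the pore formers, lay below 1 CPM and passed none.

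BIK, a BH3-only gene, changed sign between the steps. It stood at 46.2, 39.4, 40.5 and 42.1 CPM in DMSO, at 51.9, 49.4, 57.1 and 61.0 CPM in MI-503, and at 29.0, 29.7 and 36.3 CPM in the combination. No pair of groups overlapped. It rose with MI-503 (log2 fold change 0.38, edgeR adjusted p = 5.94e-04) and fell when PR-957 was added (log2 fold change -0.79, edgeR adjusted p = 1.29e-06). BNIP3, a mitophagy receptor of the family, fell from 44.9 ± 7.83 CPM in DMSO to 17.0 ± 1.91 in MI-503 (log2 fold change -1.39, edgeR adjusted p = 1.83e-08) and was at 15.3 ± 1.43 in the combination. Its relative BNIP3L rose with MI-503 (0.26, edgeR adjusted p = 0.00144) and in the combination against DMSO (0.40, edgeR adjusted p = 2.37e-05).

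BBC3, which encodes the BH3-only protein PUMA, rose in the combination against MI-503 (log2 fold change 0.31, edgeR adjusted p = 0.00248) and against DMSO (0.24, edgeR adjusted p = 0.00865), the latter not without combination replicate 2 (0.15, edgeR adjusted p = 0.0650). BCL2L13 went from 77.6 ± 1.53 CPM in MI-503 to 96.0 ± 4.51 in the combination (log2 fold change 0.31, edgeR adjusted p = 3.43e-05). BCL2L12 fell in each comparison, by 0.17, 0.40 and 0.23 on the log2 scale (edgeR adjusted p = 0.00155, 2.76e-07 and 2.56e-04). The guardian BCL2L2, which encodes BCL-W, rose with MI-503 (0.26, edgeR adjusted p = 0.00129) and in the combination against DMSO (0.37, edgeR adjusted p = 4.84e-05). BCL2L15 rose in the combination (1.87 against DMSO, edgeR adjusted p = 7.79e-05) from levels near or below 1 CPM, and HRK rose in the combination against DMSO (0.45, edgeR adjusted p = 0.0181, and 0.0570 without DMSO replicate 4).

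**Figure D5:**
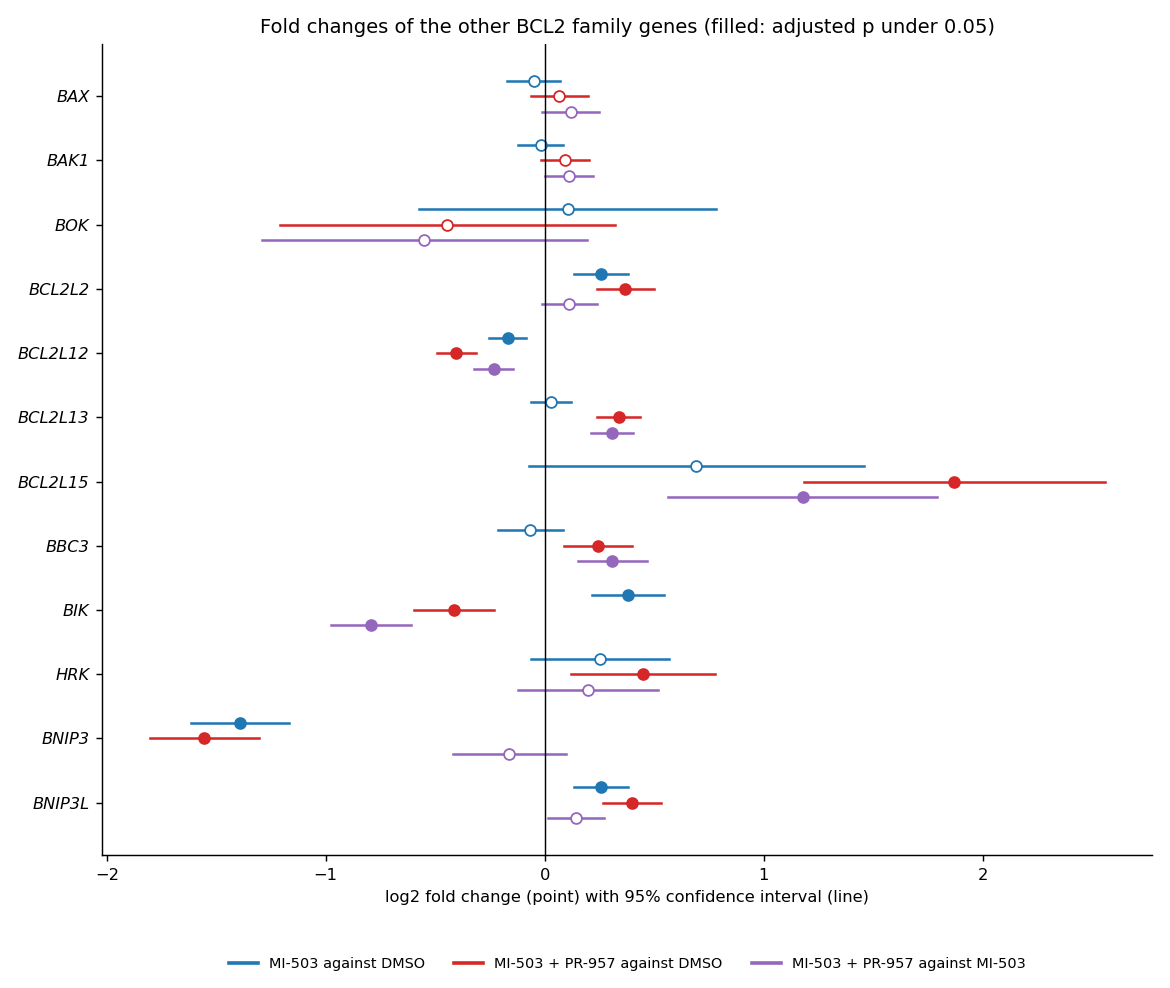
Log2 fold change of the 12 tested genes of the BCL2 family outside the 9 members, with the 95% confidence interval as a line; filled circles passed an adjusted p of 0.05. BNIP3 lies lowest with MI-503 (-1.39), BIK turns from 0.38 with MI-503 to -0.79 when PR-957 was added, and BAX and BAK1, in the main fit, stay within 0.12 of 0.

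Downstream of the mitochondria, 9 apoptosome and caspase genes were tested. With MI-503, 1 rose and 2 fell, where 22.0% of all genes were higher and 29.3% lower. Rises numbered 3 with upper-quartile scaling or without combination replicate 1. In the combination against DMSO 4 rose and 3 fell (31.7% and 32.8% of all genes), and against MI-503 4 rose and 3 fell (23.6% and 23.8%). The medians were -0.09, 0.18 and 0.05 (the last -0.06 without combination replicate 1) for these 9 and -0.03, 0.01 and 0.00 for all genes. APAF1, the apoptosome scaffold, rose with MI-503 (log2 fold change 0.47, edgeR adjusted p = 2.70e-07), and CYCS, the cytochrome c gene, fell (-0.34, edgeR adjusted p = 7.58e-04). When PR-957 was added, the initiator caspase genes CASP9 (0.75, edgeR adjusted p = 3.90e-06) and CASP8 (0.45, edgeR adjusted p = 1.88e-05) rose and CASP2 fell (-0.23, edgeR adjusted p = 3.00e-04). CASP8 and CASP2 encode caspases that NOL3 protein is known to bind. CASP10 rose against DMSO (0.82, edgeR adjusted p = 8.11e-06).

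Of the genes of inhibitors of apoptosis and their antagonists, 6 of 9 were tested. With MI-503 none rose and 3 fell (22.0% and 29.3% of all genes), but 2 rose with upper-quartile scaling and 1 without combination replicate 1. The combination gave 2 rises and 3 falls against DMSO (31.7% and 32.8%) and 2 rises and 2 falls against MI-503 (23.6% and 23.8%). The medians were -0.10, -0.09 and 0.09, and for all genes -0.03, 0.01 and 0.00. BIRC5 (survivin) fell from 124 ± 10.0 CPM in DMSO to 90.0 ± 5.33 in MI-503 and 67.1 ± 6.20 in the combination (log2 fold change -0.88 against DMSO, edgeR adjusted p = 9.38e-09). BIRC6 rose when PR-957 was added (0.38, edgeR adjusted p = 9.21e-06). HTRA2, a mitochondrial protease gene, fell in the same comparison (-0.34, edgeR adjusted p = 2.56e-04), and DIABLO (SMAC) fell with MI-503 (-0.41, edgeR adjusted p = 1.42e-04).

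In the death receptor pathway, 10 of 11 genes were tested. With MI-503, 3 rose and 3 fell (22.0% and 29.3% of all genes), or 4 and none with upper-quartile scaling. Against DMSO, 5 rose and 1 fell in the combination (31.7% and 32.8%), or 7 and none with upper-quartile scaling, and against MI-503 5 rose and none fell (23.6% and 23.8%). Without combination replicate 1, 1 gene fell with MI-503 and none in the combination against DMSO. The medians were 0.01, 0.20 and 0.10 for the 10 genes, beside -0.03, 0.01 and 0.00 for all. CFLAR (FLIP), which blocks caspase 8 at the receptor, went from 73.3 ± 1.92 CPM in DMSO to 100 ± 2.04 in MI-503 and 131 ± 22.1 in the combination (log2 fold change 0.84 against DMSO, edgeR adjusted p = 6.36e-08). TNFRSF10B, a TRAIL receptor, went from 116 ± 3.50 to 137 ± 2.32 and 161 ± 3.43 CPM and rose in each comparison (0.25, 0.47 and 0.23, edgeR adjusted p = 3.16e-05, 1.61e-08 and 1.81e-04). TRADD, an adaptor, fell with MI-503 (-0.20, edgeR adjusted p = 0.0106, and 0.0976 without MI-503 replicate 2) and rose when PR-957 was added (0.67, edgeR adjusted p = 2.09e-07). TNFSF10, the TRAIL gene, rose with MI-503 (0.66, edgeR adjusted p = 8.35e-04).

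Of 5 genes for turnover of MCL1 protein, none rose and 1 fell with MI-503 (22.0% and 29.3% of all genes), 2 rose and 1 fell in the combination against DMSO (31.7% and 32.8%), and 2 rose and none fell against MI-503 (23.6% and 23.8%). The medians were -0.03, 0.02 and 0.06, beside -0.03, 0.01 and 0.00 for all genes, and 0.01, -0.02 and -0.04 without combination replicate 1. The rises against MI-503 were the ubiquitin ligase gene BTRC (log2 fold change 0.25, edgeR adjusted p = 0.00794) and the deubiquitinase gene USP9X (0.15, edgeR adjusted p = 0.0109). The USP9X call was lost without combination replicate 1 (edgeR adjusted p = 0.117), combination replicate 4 (0.0614) or MI-503 replicate 2 (0.0765). FBXW7, a ubiquitin ligase gene, fell in the combination against DMSO (-0.26, edgeR adjusted p = 0.00139) and, without combination replicate 1, also against MI-503 (-0.21, edgeR adjusted p = 0.0147). HUWE1 was at 527 ± 19.5, 519 ± 10.9 and 535 ± 42.7 CPM and passed no test. The fall with MI-503 was MARCHF5 (-0.16, edgeR adjusted p = 0.0414), which was lost under 15 of 19 alternatives, with adjusted p up to 0.235.

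Of 9 transcription factors known to drive BH3-only genes, 1 rose and 4 fell with MI-503 (22.0% and 29.3% of all genes), 1 rose and 5 fell in the combination against DMSO (31.7% and 32.8%), and 2 rose and 4 fell against MI-503 (23.6% and 23.8%). The medians were -0.09, -0.36 and -0.08, and those of all genes -0.03, 0.01 and 0.00. Without combination replicate 1 the medians of the 9 were -0.05, -0.28 and -0.22. Falls in the combination then numbered 4 against DMSO and 5 against MI-503. DDIT3 (CHOP), a stress factor, was at 12.8 ± 0.703 CPM in DMSO and 12.1 ± 1.09 in MI-503 and rose to 28.8 ± 4.50 in the combination (log2 fold change 1.24 against MI-503, edgeR adjusted p = 3.18e-08). TP73 fell with MI-503 (-0.47, edgeR adjusted p = 5.01e-06) and again when PR-957 was added (-0.38, edgeR adjusted p = 1.71e-04). ATF4 fell with MI-503 (-0.52, edgeR adjusted p = 6.59e-06), as did ATF3 (-0.82, edgeR adjusted p = 1.98e-05), and ATF3 rose when PR-957 was added (0.46, edgeR adjusted p = 0.00646, and 0.0563 without combination replicate 2). For ATF4 that step was -0.08 (edgeR adjusted p = 0.409), and -0.22 without combination replicate 1 (edgeR adjusted p = 0.00212).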

How the data were processed

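PolyA RNA of 11 MOLM-13 libraries was sequenced. Per the labels and the study's methods, the authors trimmed reads with Trimmomatic 0.39, aligned them to hg38 with STAR 2.7.10a, counted fragments over exons with featureCounts 2.0.1 without strand, and deposited raw counts per gene with gene lengths. The joined counts differed from the single-library counts in 0 cells. The deposited tables of the authors' own DESeq2 comparisons (fold changes and p-values) were not used.

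Counts were TMM-scaled and fitted with the edgeR 4.0.16 quasi-likelihood test in R 4.3.3 (limma 3.58.1), all 11 libraries in 1 fit with a mean per group, on 14683 genes kept by filterByExpr (minimum count 10, minimum total 15), with Benjamini-Hochberg adjustment over all genes and a threshold of 0.05, two-sided. FPKM used the deposited lengths. DESeq2 1.42.0, limma-voom, other scalings and filters, a replicate block and each library left out were alternatives. Same-numbered libraries of MI-503 and the combination deviated together (r = 0.140, 0.149 and 0.211), which met a rule of r over 0.1 for pairs. However, MI-503 replicate 3 with combination replicate 4 gave 0.269, and MI-503 replicate 1 with combination replicate 2 gave 0.130. Same-numbered libraries of DMSO did not all reach the rule. The main fit did not pair libraries, so its calls ignore any pairing, and the replicate block was used only as an alternative.

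The members and gene lists were chosen with earlier results of these data known. Genes named are every member, every tested gene of the other BCL2 family list, from every further list the 3 with the lowest adjusted p in a comparison, the 5 most like NOL3, and neighbours of NOL3 or genes sharing exon bases with a member. Intervals cover 95%. Promoter letters came from RefSeq. Some genes of these lists are not reported here by name.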

Additional observations from a re-analysis of the deposited data

Results flagged for a closer look

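Of 20 groups of 4 libraries tested for a library far from the others, 1 had one, and chance gives about 1 in 20. BID in DMSO replicate 1 was at 68.4 CPM, while the other DMSO libraries lay between 64.5 and 65.0 CPM.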

How the results depend on the processing

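Against the main counts of 1 rise and 4 falls (MI-503 against DMSO), 2 and 5 (combination against DMSO) and 2 and 2 (combination against MI-503), leaving out 1 library at a time gave 1 rise and 2 to 4 falls, 1 to 2 rises and 5 falls, and 1 to 2 rises and 1 to 2 falls. Falls with MI-503 numbered 2 with upper-quartile scaling, with the stricter filter (a mean of 5 CPM) and at an adjusted p under 0.01. Rises in the combination against DMSO numbered 1 with the stricter filter, which drops BCL2A1, with limma-voom and at 0.01. Rises against MI-503 numbered 1 with DESeq2 and at 0.01, and falls 1 with only the compared groups in the fit and at 0.01. Values that passed no test changed sign in a few settings. For BAD with MI-503 they were 0.020 with upper-quartile scaling, 0.028 with the stricter filter, 0.0023 with only the compared groups and -0.10 to 0.039 without 1 library. For BCL2L1 without 1 library they ranged from -0.013 to 0.11 with MI-503 and from -0.040 to 0.13 in the combination against MI-503. With the replicate block, BAD was 0.25 in the combination against DMSO (edgeR adjusted p = 0.0488) and BMF 0.23 against MI-503, and apart from BAD and BMF it changed no call of the 9. The causes were not tested. Depth limits BCL2A1, with as few as 11 fragments in a library.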
